A study of Mus musculus with 12 samples.

Results

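Cytosolic ribosomal proteins are the structural proteins of the ribosome that translates nuclear-encoded mRNAs. Their mRNAs were followed in BV2 cells, an immortalised mouse microglial line. A gene was counted when its array feature was annotated to a single symbol made of Rpl or Rps and a number, with at most 1 of the letters a, x, y or l after it, or to Rplp0, Rplp1, Rplp2 or Rpsa. Rps3a was kept under its updated symbol Rps3a1, while S6 kinases, symbols ending in -ps and mitochondrial ribosomal genes were left out. The rule found 65 of the 22180 genes measured, and it used names only, not signal differences. Of these, 35 encode canonical large-subunit proteins, 23 encode canonical small-subunit proteins and 7 are paralogs or retrogene copies (Rpl3l, Rpl6l, Rpl10l, Rpl32l, Rpl39l, Rps4l and Rps27l).

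Total RNA was measured on 12 Affymetrix gene arrays, 3 for each of 4 treatments of wild-type cells, all in medium with 1.5% DMSO. The telmisartan+LPS cells had the drug for 2 h and then LPS for 1 h, and the LPS cells had vehicle for 2 h and then LPS for 1 h. The telmisartan cells had the drug for 3 h, and the DMSO cells had vehicle for 3 h. LPS (lipopolysaccharide), from the outer membrane of bacteria, signals through Toll-like receptor 4. Telmisartan is a blood pressure drug that blocks the angiotensin II type 1 receptor and is also a partial PPAR gamma agonist. Doses of drug and LPS are not given in the sources used here. BV2 is a single line and no primary microglia were used, so the arrays are samples of 1 cell line. The labels call the samples of a group independent and also say that each was analysed in triplicate, without stating whether the 3 arrays are separate cultures or repeats of a sample. The p-values therefore measure only the spread between these samples, which may be technical.

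Each cytosolic ribosome holds a small subunit, which decodes the mRNA, and a large subunit, which joins the amino acids. The proteins are needed in equal numbers, and free copies are degraded, so cells tend to make them together. In mammals most of these mRNAs start with a C and a run of pyrimidines, the TOP motif (terminal oligopyrimidine tract), through which mTORC1, a kinase complex that senses nutrients and growth signals, sets how strongly they are translated. Several members have further known roles: Rpl5 and Rpl11 carry 5S rRNA and bind the p53 inhibitor Mdm2, Rps3 also acts in NF-kappaB complexes, and Rps6 is the target of the S6 kinases.

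The annotated starts of 8 members named below are shown, because the TOP motif, where present, lies at the start. Sequences come from the RefSeq promoter table (build GRCm38.p6), which held 50 of the 65 members and did not list the other 15. Each window holds 15 bases before and 15 bases from the annotated start, on the transcript strand, 5′ to 3′, and capitals mark a C followed by 6 or more bases that are each C or T. The windows with such a run lie at chr3:90213634-90213663 (minus strand) for Rps27, chr4:86857353-86857382 (minus) for Rps6, chr14:24490663-24490692 (plus) for Rps24 and chr7:141447636-141447665 (plus) for Rplp2. Those without it lie at chr5:115559452-115559481 (plus) for Rplp0, chr7:116334176-116334205 (minus) for Rps13, chr11:68901551-68901580 (plus) for Rpl26 and chr4:136053379-136053408 (minus) for Rpl11. Rps24 had 2 starts in the table, of which the first is printed. The 8 printed members are a selection, so their split by the run does not describe the family. Windows of Rps15 and Rpl5, without the run, and of Rps27l and Rpl39l, with it, are not printed.
Rps27: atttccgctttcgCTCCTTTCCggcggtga
Rps6: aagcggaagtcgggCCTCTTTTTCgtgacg
Rps24: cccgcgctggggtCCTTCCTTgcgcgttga
Rplp2: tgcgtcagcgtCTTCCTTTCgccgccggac
Rplp0: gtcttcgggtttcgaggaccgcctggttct
Rps13: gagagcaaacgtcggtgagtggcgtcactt
Rpl26: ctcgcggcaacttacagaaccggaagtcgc
Rpl11: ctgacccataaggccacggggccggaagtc

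A gene with several starts in the table was counted if the letters were in the window of any of them. The run was present on the transcript strand in 26 of the 50 matched members (52.0%), against 17.0% of the 16990 genes of the table that were measured here. On the other strand it was present in 8.0% of the members, against 18.2% of these genes. A shorter form, CTTTC, which the longer run can contain, was found on the transcript strand in 24% of the members and in 4.41% of the genes. On the other strand CTTTC was found in 4.0% of the members and in 3.78% of the genes. The run was thus more frequent in the family than among all genes on the transcript strand, and less frequent on the other. The windows depend on where the annotation places the start, and a window without the run says only that these letters are not in those 30 bases.

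Of the microglial and macrophage markers, 8 of 9 lay above the median gene (4.44 on the log2 scale), with P2ry12 (3.58) below it. Tmem119 (4.845) and Cx3cr1 (5.30) lay close to the neuronal marker Rbfox3 (5.035), so a place above the median gene does not by itself show expression. Of markers of other brain cell types, 0 of 3 astrocyte, 0 of 3 oligodendrocyte, 1 of 3 neuronal and 1 of 2 endothelial markers lay above the median gene. The mean signal of the microglial list ranged from 7.92 to 7.99 on telmisartan+LPS arrays, 7.96 to 8.0 on LPS arrays, 7.85 to 7.94 on telmisartan arrays and 7.91 to 7.94 on DMSO arrays. LPS acted in both settings: Tnf was 1.48 ± 0.09 higher in telmisartan+LPS than in telmisartan cells and 1.6 ± 0.09 higher in LPS than in DMSO cells (log2 difference ± SE, n = 3 each; limma, adjusted p 3.7e-06 and 8.2e-07). Correlations between arrays over all genes lay between 0.995 and 0.997, and array medians between 4.40 and 4.49. Arrays have no read depth, and the number of arrays limits the precision.

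Most ribosomal protein mRNAs gave bright signals. Of the 65 members, 38 (58.5%) had a mean log2 signal of 8 or more, against 18.7% of all genes, and 21 reached 11 or more. Means ran from 2.50 for Rpl10l to 12.31 for Rpl21, but brightness depends on the probes of a feature and does not rank the genes. Signals of 7 members lay below the median gene, among them 3 canonical genes, Rpl27a (3.79), Rps15 (3.62) and Rps16 (3.91), and differences of such dim features are the least secure. The residual SD of a member was 0.113 (median), close to 0.117 for all genes, and ran from 0.012 for Rpl4 to 0.495 for Rps15. The brighter feature of Rpl4, a protein of the exit tunnel, was the steadiest, at 12.12 to 12.17 on all 12 arrays. The other Rpl4 feature, with a mean of 4.65, ran from 4.23 to 5.29.

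Seen array by array, the family differed by small amounts. Each member's signal was set against its own mean over the 12 arrays, and the median of these deviations over the 65 members was taken. It was -0.03, 0.11 and 0.10 on the telmisartan+LPS arrays, against 0.01, -0.07 and -0.05 on the LPS arrays. On telmisartan arrays it was -0.08, -0.02 and -0.07, against -0.002, 0.07 and 0.001 on DMSO arrays. Telmisartan+LPS replicates 2 and 3 were the highest of the 12 arrays, while replicate 1 of that group lay among the LPS and telmisartan arrays, so telmisartan+LPS overlapped with LPS and with telmisartan. All 3 telmisartan arrays lay below all 3 DMSO arrays. On telmisartan+LPS arrays 24, 59 and 46 members were above their own mean, against 36, 16 and 18 on LPS arrays, 15, 26 and 16 on telmisartan arrays and 32, 51 and 34 on DMSO arrays. The same median over all genes stayed between -0.011 and 0.009 on every array.

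**Figure D1:**
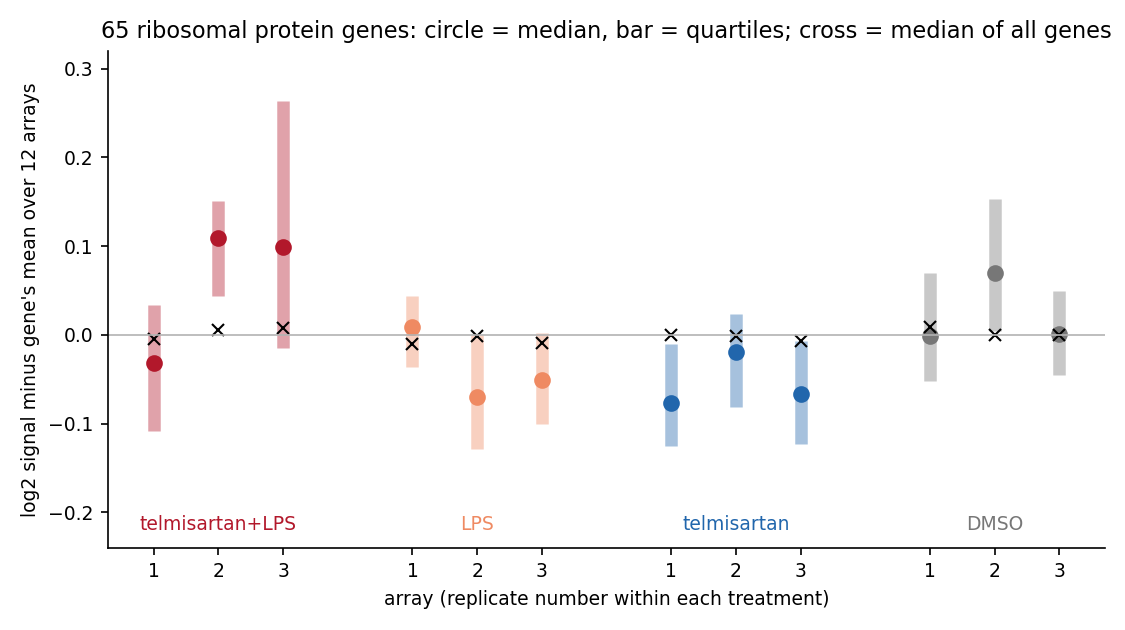
Median (circle) and quartiles (bar) over the 65 ribosomal protein genes of the log2 signal minus the gene's mean over 12 arrays, for each array, with the median over all genes as a cross. Replicates 2 and 3 of telmisartan+LPS sit highest, at 0.11 and 0.10, while replicate 1 of that group is at -0.03, and the 3 telmisartan arrays sit below the 3 DMSO arrays.

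The comparison of telmisartan+LPS with LPS asks what the drug did to LPS-treated cells. No ribosomal protein gene passed the test (0 of 65, against 0.0% of all genes; limma with Benjamini-Hochberg adjustment over 22180 genes, adjusted p under 0.05), and the smallest adjusted p of a member was 0.383. The values themselves were higher in telmisartan+LPS cells for 53 members, lower for 10 and equal for 2, with a median log2 difference of 0.10, against 0.01 over all genes. Among the 38 brighter members 36 were higher and 0 lower. At an unadjusted p under 0.05, 10 members were higher and 1 (Rpl5) was lower, against 9.81% of all genes in either direction. Groups did not overlap for 11 members that were higher (6.74% of all genes) and for 1, Rps18, that was lower (6.23%).
The largest values belonged to Rps15 (0.71 ± 0.32), Rplp0 (0.40 ± 0.16) and Rps13 (0.38 ± 0.13), and the lowest to Rpl5 (-0.21 ± 0.10), Rpl11 (-0.21 ± 0.15) and Rpl22 (-0.09 ± 0.07; log2 difference ± SE, n = 3 each).

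The comparison of telmisartan+LPS with telmisartan asks what LPS did to drug-treated cells. Again 0 of 65 members passed the test, against 0.261% of all genes, and the lowest adjusted p in limma were 0.105 for Rplp0 and Rps27 and 0.167 for Rps24. Of the members, 53 were higher in telmisartan+LPS cells and 12 lower, with a median log2 difference of 0.11, against 0.01 over all genes. An unadjusted p under 0.05 was reached by 13 members that were higher and 2, Rplp2 and Rpl11, that were lower, against 13.6% of all genes. Groups did not overlap for 15 members that were higher (8.03% of all genes) and for 1, Rplp2, that was lower (8.95%). With the arrays centred on their medians the members' median was 0.05, and that of all genes was -0.05.

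Calls here depended on 3 settings. With a trended, robust variance prior, Rps24 (adjusted p 0.024) and Rps27 (adjusted p 0.029) passed, and with the dimmer genes left out of the adjustment Rps27 passed (adjusted p 0.045). Without telmisartan+LPS replicate 1, Rpl26 passed, with a log2 difference of 0.44 and an adjusted p of 0.032, against 0.24 and 0.437 with all arrays; the difference was 0.10 without telmisartan+LPS replicate 2. Over the settings tried, left-out arrays included, the adjusted p ran from 0.024 to 0.536 for Rps24, 0.029 to 0.533 for Rps27 and 0.032 to 0.751 for Rpl26. Leaving out telmisartan+LPS replicates 1 and 3, a choice made after seeing the data, left replicate 2 as the only array of its group, assumed to vary like the other groups; 0 members passed, and the members' median was 0.16 against telmisartan and 0.15 against LPS. Replicate 2 is the array with the highest member median.

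LPS alone was compared with DMSO to give the 1 h response without drug. Here too 0 of 65 members passed, against 0.428% of all genes (limma, smallest adjusted p of a member 0.355). The members' values lay slightly lower in LPS cells: 51 were lower and 14 higher, with a median log2 difference of -0.04, against -0.01 over all genes, and 59 lay within 0.2 of 0. The median was -0.07 with the arrays centred, where that of all genes was -0.04; it was -0.073 without LPS replicate 1 and -0.075 without DMSO replicate 3, and -0.065 without DMSO replicate 1. At an unadjusted p under 0.05 there were 0 higher and 4 lower members (Rplp2, Rps13, Rps3a1 and Rpl30), against 9.02% of all genes. Groups did not overlap for 10 lower members (9.42% of all genes) and for 0 higher ones (6.28%).

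Telmisartan alone was compared with DMSO to give the effect of the drug without LPS. The test called 0 of 65 members, against 0.0% of all genes, with a smallest adjusted p of 0.872 (limma). Values were lower in telmisartan cells for 55 members and higher for 10, with a median of -0.07, against -0.01 over all genes, and 58 lay within 0.2 of 0. An unadjusted p under 0.05 was reached by 7 members, all lower (Rplp0, Rpl5, Rpl7, Rpl30, Rps3a1, Rps4x and Rps29). Over all 22180 genes it was reached by 5.51% in either direction, 671 lower and 551 higher. Groups did not overlap for 15 lower members, against 6.66% of all genes, and for 0 higher members, against 4.73%. The count of non-overlapping lower members was thus above the share of all genes, while most sizes stayed small. Rplp0 (-0.40 ± 0.16), Rpl7 (-0.28 ± 0.10) and Rpl30 (-0.24 ± 0.09) were the lowest. The highest was the dim Rps15 (0.38 ± 0.32), with overlap.

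The interaction, the LPS difference with drug minus the LPS difference without it, combined the 4 groups. None of the 65 members passed, against 0.0% of all genes (limma, smallest adjusted p of a member 0.604). An unadjusted p under 0.05 was reached by 17 members, all positive. Over all 22180 genes it was reached by 7.78% in either direction, 1066 positive and 659 negative. Its values were positive for 57 members and negative for 8, with a median of 0.17, against 0.02 over all genes. The median was 0.24 without telmisartan+LPS replicate 1 and lay between 0.12 and 0.24 when any 1 array was left out. The interaction shares its arrays with the 4 comparisons above, which also share the telmisartan+LPS or the DMSO arrays among themselves, so their similar signs are not separate evidence.

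**Figure D2:**
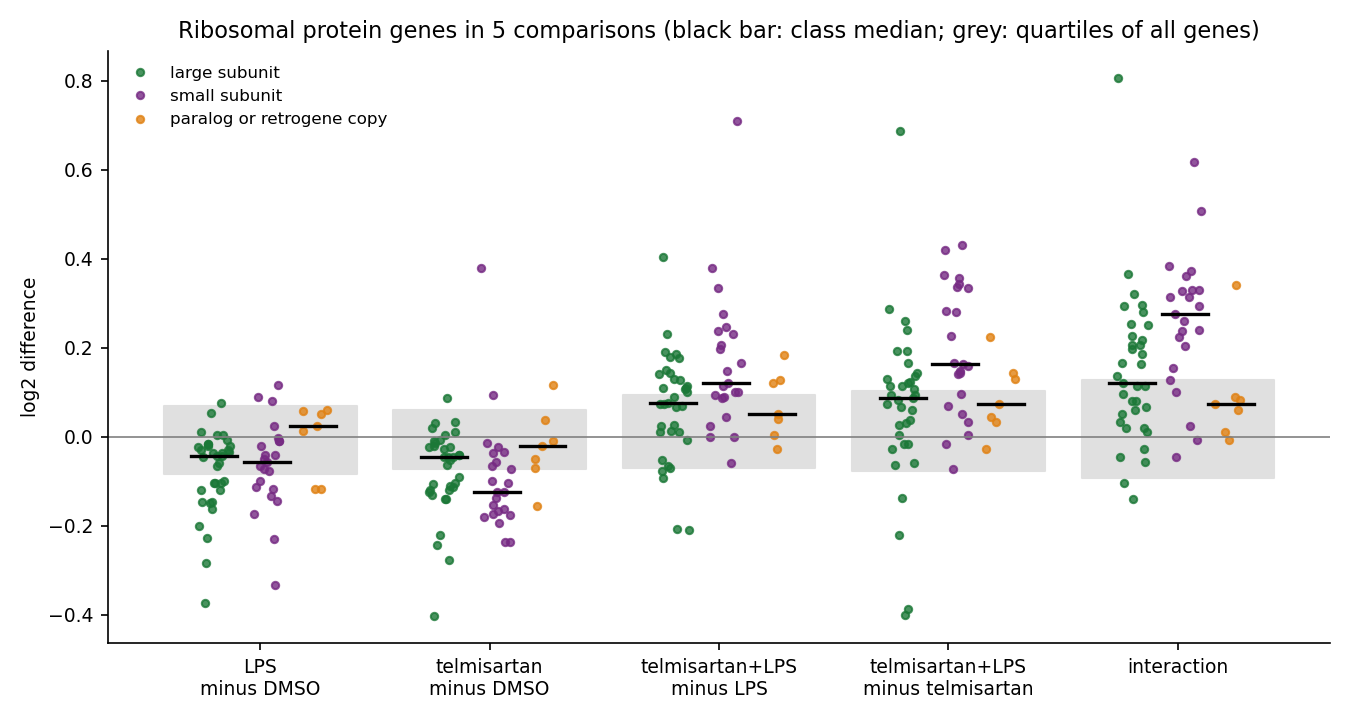
Log2 difference of each ribosomal protein gene (point) in 5 comparisons, coloured by class, with the class median as a black bar and the quartiles of all genes as a grey box. Points lie mostly just below 0 for LPS minus DMSO and telmisartan minus DMSO, and mostly above 0 for the comparisons of telmisartan+LPS and for the interaction, where Rplp0 is the top point at 0.81.

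Small-subunit genes had the larger medians. In telmisartan+LPS minus LPS the median was 0.12 over the 23 small-subunit genes and 0.08 over the 35 large-subunit genes, and in telmisartan+LPS minus telmisartan it was 0.16 and 0.09. Telmisartan minus DMSO gave -0.12 for the small and -0.05 for the large subunit, and LPS minus DMSO gave -0.06 and -0.04. For the interaction the medians were 0.28 and 0.12. The 7 paralogs and retrogene copies had medians between -0.02 and 0.07 in the 5 comparisons. These are descriptions, and the difference between the classes was not tested.

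The ribosomal stalk recruits the elongation factors, and its base is Rplp0, whose mRNA is often used as a reference in PCR assays. Rplp0 had a signal of 10.23, 10.25 and 10.78 on telmisartan+LPS arrays, 10.12, 10.00 and 9.93 on LPS arrays, 9.57, 9.87 and 9.76 on telmisartan arrays, and 9.96, 10.46 and 9.99 on DMSO arrays. All telmisartan+LPS arrays lay above all LPS arrays and all telmisartan arrays, and all telmisartan arrays lay below all DMSO arrays. Its difference was 0.69 ± 0.16 for telmisartan+LPS minus telmisartan, or 1.61-fold, the largest of the 65 members in that comparison, and it missed the threshold (limma, adjusted p 0.105). The interaction was 0.81 ± 0.22 (adjusted p 0.604). Without telmisartan+LPS replicate 3, the difference from LPS was 0.22 in place of 0.40, and without DMSO replicate 2 the difference of telmisartan from DMSO was -0.24 in place of -0.40. A dimmer Rplp0 feature, with a mean of 6.31, had differences between -0.05 and 0.06 in the 5 comparisons.

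Rplp1 and Rplp2 form the acidic dimers on that stalk. The brighter Rplp1 feature hardly varied. It had 12.04, 12.17 and 12.03 on telmisartan+LPS arrays and 12, 12 and 12.03 on LPS arrays. Telmisartan arrays had 12.02, 11.96 and 12.06, and DMSO arrays had 11.99, 12.04 and 12.09. The other Rplp1 feature, with a mean of 7.36, varied more. With telmisartan+LPS it was 0.23 above LPS and 0.14 above telmisartan. Against DMSO its values were -0.19 with LPS and -0.1 with telmisartan, and its interaction was 0.33. Rplp2, a dim feature, had 4.88, 4.62 and 4.72 on telmisartan+LPS arrays, 4.74, 4.62 and 4.88 on LPS arrays, 5.01, 4.96 and 5.45 on telmisartan arrays, and 5.05, 5.09 and 5.22 on DMSO arrays. Both groups that received LPS lay below both groups that did not, with no overlap within either pair. The difference was -0.40 ± 0.12 for telmisartan+LPS minus telmisartan and -0.37 ± 0.12 for LPS minus DMSO (limma, adjusted p 0.207 and 0.355). Without telmisartan replicate 3, the highest array, the telmisartan+LPS minus telmisartan difference was -0.25. Differences between the stalk genes were not tested.

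**Figure D3:**
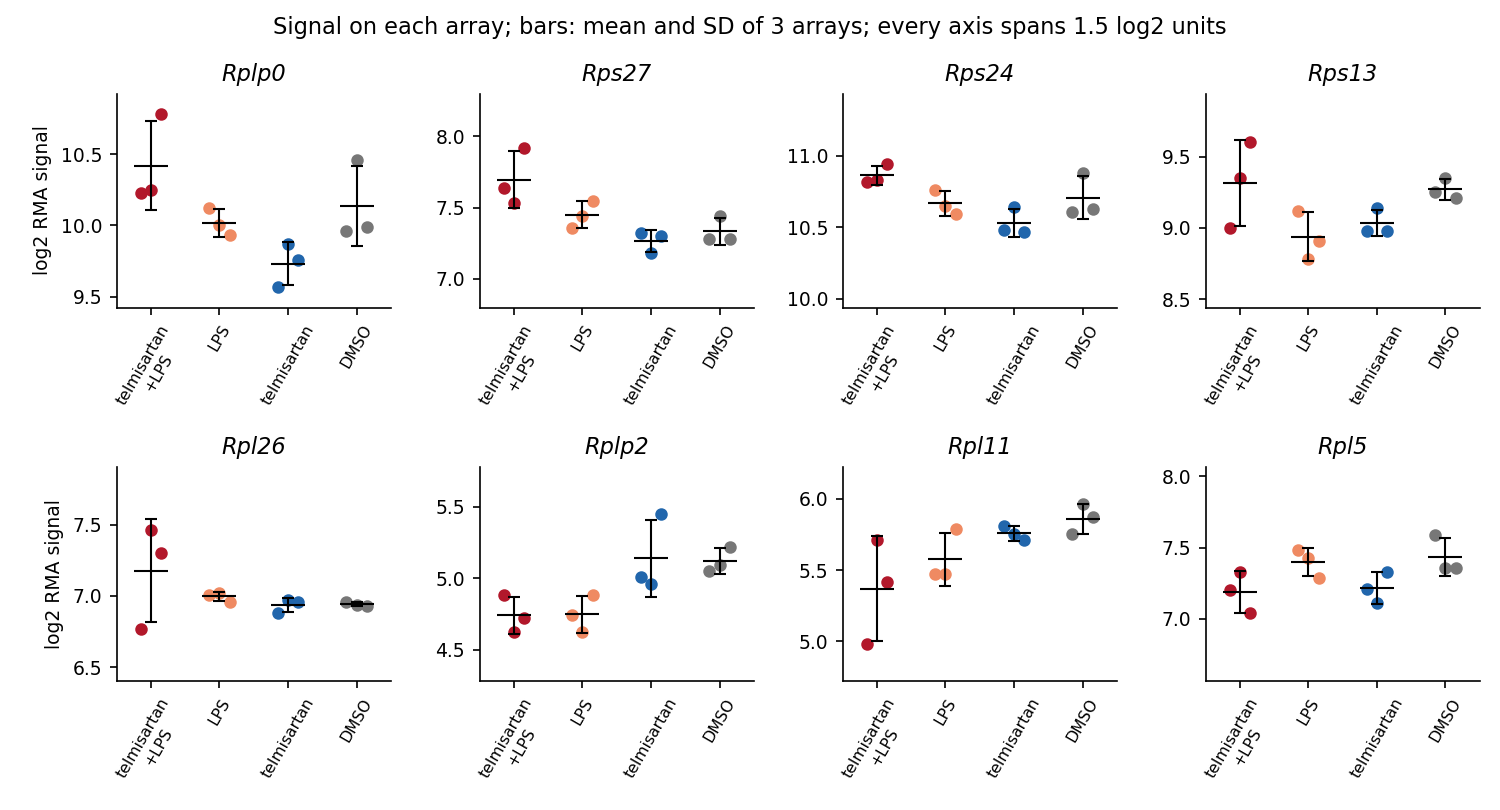
Log2 signal of 8 ribosomal protein genes on each array (points) with the mean and SD of 3 arrays, telmisartan+LPS leftmost and DMSO rightmost, and every axis spanning 1.5 log2 units. Rplp0, Rps27 and Rps24 are highest with telmisartan+LPS, Rplp2 is lower in both LPS groups, and Rpl26 and Rpl11 have a telmisartan+LPS replicate 1 well below the other arrays of that group.

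Rpl5 and Rpl11 travel together with 5S rRNA to the large subunit. Rpl11 had 4.98, 5.71 and 5.42 on telmisartan+LPS arrays, 5.47, 5.47 and 5.79 on LPS arrays, 5.81, 5.75 and 5.71 on telmisartan arrays, and 5.75, 5.96 and 5.87 on DMSO arrays. Its differences were -0.39 ± 0.15 for telmisartan+LPS minus telmisartan (limma, adjusted p 0.286), -0.21 for telmisartan+LPS minus LPS and -0.28 for LPS minus DMSO. Telmisartan+LPS replicate 1 was the lowest of all arrays; without it the difference from telmisartan was -0.19 and that from LPS was -0.01. Rpl5 had 7.20, 7.33 and 7.04 on telmisartan+LPS arrays, 7.48, 7.43 and 7.29 on LPS arrays, 7.21, 7.11 and 7.33 on telmisartan arrays, and 7.59, 7.36 and 7.36 on DMSO arrays. Rpl5 was lower in each drug group, by values of -0.21 ± 0.10 against LPS, with overlap, and -0.22 ± 0.10 against DMSO, without overlap (limma, adjusted p 0.509 and 0.882). Without telmisartan+LPS replicate 3 the Rpl5 difference from LPS was -0.14, and without LPS replicate 3 that of Rpl11 was -0.10.

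Among small-subunit genes, Rps27, a zinc-finger protein, had 7.64, 7.53 and 7.92 on telmisartan+LPS arrays, 7.36, 7.44 and 7.55 on LPS arrays, 7.32, 7.18 and 7.30 on telmisartan arrays, and 7.28, 7.44 and 7.28 on DMSO arrays. Its difference was 0.43 ± 0.10 for telmisartan+LPS minus telmisartan (1.35-fold; limma, adjusted p 0.105), without overlap, and 0.25 for telmisartan+LPS minus LPS, with overlap. Rps24, a gene mutated in some human families with Diamond-Blackfan anaemia, had 10.82, 10.83 and 10.94 on telmisartan+LPS arrays, 10.76, 10.65 and 10.59 on LPS arrays, 10.48, 10.64 and 10.47 on telmisartan arrays, and 10.61, 10.88 and 10.63 on DMSO arrays. Telmisartan+LPS arrays lay above all LPS and all telmisartan arrays, by 0.20 ± 0.09 and 0.33 ± 0.09 (limma, adjusted p 0.488 and 0.167). The other features of Rps24, with means of 8.73 and 7.5, gave 0.19 and 0.12 for both of these differences.

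Rps13 lay lower in each singly treated group and not in the doubly treated one. Its signal was 9.0, 9.35 and 9.60 on telmisartan+LPS arrays, 9.12, 8.78 and 8.91 on LPS arrays, 8.98, 9.14 and 8.98 on telmisartan arrays, and 9.25, 9.35 and 9.21 on DMSO arrays. LPS arrays and telmisartan arrays all lay below the DMSO arrays, by values of -0.33 ± 0.13 and -0.24 ± 0.13, while the telmisartan+LPS arrays spread from the telmisartan level to above the DMSO level. The interaction was 0.62 ± 0.18 (limma, adjusted p 0.604), and without telmisartan+LPS replicate 3 the difference of telmisartan+LPS from LPS was 0.24 in place of 0.38. Rps3a1 was also lower with each single treatment, but its telmisartan+LPS mean of 10.77 stayed below its DMSO mean of 10.91. Rps3a1 had 10.65, 10.89 and 10.77 on telmisartan+LPS arrays, 10.81, 10.56 and 10.67 on LPS arrays, 10.64, 10.77 and 10.61 on telmisartan arrays, and 10.93, 10.92 and 10.88 on DMSO arrays. Each single treatment was below DMSO without overlap, by values of -0.23 ± 0.08 for LPS and -0.24 ± 0.08 for telmisartan (limma, adjusted p 0.427 and 0.872). A dim Rps3a1 feature, with a mean of 4.75, gave 0.14 and 0.08 for these differences.

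Rps3, which in human cells also binds NF-kappaB p65, had 10.71, 10.94 and 10.97 on telmisartan+LPS arrays, 10.86, 10.66 and 10.82 on LPS arrays, 10.68, 10.71 and 10.79 on telmisartan arrays, and 10.88, 10.91 and 10.89 on DMSO arrays. Both single treatments lay just below DMSO without overlap, by values of -0.11 and -0.17. Rps6, the S6 kinase target, had 12.31, 12.23 and 12.31 on telmisartan+LPS arrays, 12.21, 12.19 and 12.09 on LPS arrays, 12.15, 12.13 and 12.14 on telmisartan arrays, and 12.15, 12.19 and 12.18 on DMSO arrays. Telmisartan+LPS was above LPS and above telmisartan without overlap, by 0.12 and 0.14. Rpsa, also known as the laminin receptor, had 11.64, 11.70 and 11.96 on telmisartan+LPS arrays, 11.63, 11.51 and 11.54 on LPS arrays, 11.40, 11.56 and 11.50 on telmisartan arrays, and 11.51, 11.76 and 11.56 on DMSO arrays. It too was higher with telmisartan+LPS than with LPS (0.21) and than with telmisartan (0.28), without overlap and short of the threshold (limma, adjusted p 0.507 and 0.238). The other Rpsa feature, with a mean of 8.27, gave -0.02 and -0.12 for these differences. Rps19, the most often mutated gene in human Diamond-Blackfan anaemia, had 9.82, 10.04 and 9.98 on telmisartan+LPS arrays, 9.97, 9.67 and 9.86 on LPS arrays, 9.80, 9.87 and 9.69 on telmisartan arrays, and 9.90, 10.09 and 9.86 on DMSO arrays, with overlap among telmisartan+LPS and the other groups.

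Rps20 and Rps15, both in the head of the small subunit, were dim. Rps20 had 4.75, 5.00 and 5.18 on telmisartan+LPS arrays, 4.59, 4.70 and 4.64 on LPS arrays, 4.58, 4.83 and 4.43 on telmisartan arrays, and 4.58, 4.95 and 4.83 on DMSO arrays. Telmisartan+LPS lay above LPS without overlap (0.33 ± 0.13; limma, adjusted p 0.424), and the other Rps20 feature, with a mean of 4.46, gave 0.25 for that comparison and -0.10 against telmisartan in place of 0.36. Rps15 had 3.16, 4.53 and 4.61 on telmisartan+LPS arrays, 3.43, 3.61 and 3.13 on LPS arrays, 4.21, 3.49 and 3.34 on telmisartan arrays, and 3.22, 3.53 and 3.15 on DMSO arrays. Its difference of 0.71 from LPS rested on replicates 2 and 3, since replicate 1 was among the lowest of the 12 arrays; it was 1.18 without replicate 1 and 0.46 without replicate 3. Rps18 gave the single non-overlapping lower value against LPS, with 5.47, 5.53 and 5.48 on telmisartan+LPS arrays, against 5.57, 5.55 and 5.54 on LPS arrays, 5.37, 5.35 and 5.66 on telmisartan arrays and 5.38, 5.56 and 5.48 on DMSO arrays. That difference was only -0.06 ± 0.08. Rps25 was at 8.41 on telmisartan replicate 1 and between 7.97 and 8.30 elsewhere, and its difference of telmisartan from DMSO was 0.09 with that array and -0.045 without it.

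In the large subunit, Rpl26, which in human cells also binds the p53 mRNA, had 6.77, 7.46 and 7.30 on telmisartan+LPS arrays, 7.01, 7.02 and 6.96 on LPS arrays, 6.88, 6.97 and 6.96 on telmisartan arrays, and 6.96, 6.94 and 6.93 on DMSO arrays. The 9 arrays of the other treatments kept within 6.88 and 7.02, and the telmisartan+LPS arrays lay on both sides of them. Rpl7 had 9.73, 10.00 and 9.82 on telmisartan+LPS arrays, 9.89, 9.60 and 9.79 on LPS arrays, 9.56, 9.80 and 9.69 on telmisartan arrays, and 9.83, 10.09 and 9.96 on DMSO arrays. Rpl30 had 6.56, 6.72 and 6.73 on telmisartan+LPS arrays, 6.58, 6.86 and 6.80 on LPS arrays, 6.81, 6.71 and 6.67 on telmisartan arrays, and 6.85, 7.05 and 7.02 on DMSO arrays. Both were lower in telmisartan than in DMSO cells without overlap. Rpl10a, the protein of the L1 stalk, where spent tRNA leaves, had 10.14, 10.08 and 10.27 on telmisartan+LPS arrays, 9.91, 10.05 and 9.84 on LPS arrays, 9.90, 9.90 and 9.91 on telmisartan arrays, and 9.91, 10.03 and 9.83 on DMSO arrays. It was higher with telmisartan+LPS than with LPS (0.23 ± 0.08) and than with telmisartan (0.26 ± 0.08), without overlap and short of the threshold (limma, adjusted p 0.383 and 0.207).

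Further members were named for extreme values, and none of them was called. Rpl22, which is dispensable for most translation in mice but not for alpha-beta T cells, had 6.32, 6.41 and 6.26 on telmisartan+LPS arrays, 6.48, 6.36 and 6.43 on LPS arrays, 6.28, 6.36 and 6.40 on telmisartan arrays, and 6.50, 6.46 and 6.42 on DMSO arrays. It was lower in telmisartan than in DMSO cells without overlap (-0.11 ± 0.07). Rpl6 had 6.75, 7.12 and 6.47 on telmisartan+LPS arrays, 6.90, 6.77 and 6.83 on LPS arrays, 6.73, 6.95 and 7.07 on telmisartan arrays, and 6.83, 6.81 and 6.85 on DMSO arrays. Its interaction of -0.14 ± 0.19 was the lowest of the 65 and was well within its error. Rpl27a had 3.63, 3.92 and 3.43 on telmisartan+LPS arrays, 3.73, 3.59 and 3.86 on LPS arrays, 3.95, 3.82 and 3.87 on telmisartan arrays, and 4.0, 3.82 and 3.85 on DMSO arrays, with overlap between telmisartan+LPS and each other treatment. Its difference for telmisartan+LPS minus telmisartan was -0.22 ± 0.11 (limma, adjusted p 0.407).

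Paralogs can replace a canonical protein in some tissues, so each was set beside its partner where that is a member. Rps27l, a p53 target in human and mouse cells, had 7.76, 8.17 and 8.05 on telmisartan+LPS arrays, 7.98, 7.89 and 7.99 on LPS arrays, 8.07, 8.06 and 7.93 on telmisartan arrays, and 8.14, 8.05 and 8.02 on DMSO arrays. Its difference for telmisartan+LPS minus telmisartan was -0.03 ± 0.09, where its partner Rps27 gave 0.43 ± 0.10. Rpl3l, a muscle form, kept within 3.96 and 4.19 on all arrays, below the median gene, while Rpl3, which lies at the peptidyl transferase centre, had 9.82, 10.21 and 10.39 on telmisartan+LPS arrays, 10.03, 9.88 and 9.94 on LPS arrays, 9.69, 9.99 and 9.88 on telmisartan arrays, and 9.72, 10.30 and 9.93 on DMSO arrays. Rpl39l and Rpl10l, known from mouse male germ cells, kept within 4.40 and 4.77 and within 2.37 and 2.68. Rpl39, the partner of Rpl39l in the exit tunnel, ran from 4.92 to 5.38, and Rpl10, the partner of Rpl10l, is not among the members.

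Retrogene copies cannot always be separated from their sources by array probes. Rpl6l, a pseudogene in RefSeq, had 10.67, 10.91 and 11.05 on telmisartan+LPS arrays, 10.76, 10.63 and 10.69 on LPS arrays, 10.58, 10.72 and 10.66 on telmisartan arrays, and 10.71, 10.94 and 10.78 on DMSO arrays. Rpl6l gave 0.22 ± 0.10 for telmisartan+LPS minus telmisartan and 0.34 ± 0.14 for the interaction (limma, adjusted p 0.331 and 0.615). Its partner Rpl6 gave -0.14 ± 0.13 and -0.14 ± 0.19 (limma, adjusted p 0.688 and 0.868). Whether the Rpl6l feature shares signal with other copies was not tested. Rps4l, also a pseudogene in RefSeq, kept within 3.41 and 3.87. Its partner Rps4x had 11.10, 11.35 and 11.38 on telmisartan+LPS arrays, 11.18, 11.10 and 11.25 on LPS arrays, 11, 11.10 and 11.05 on telmisartan arrays, and 11.17, 11.35 and 11.21 on DMSO arrays. Telmisartan lay below DMSO without overlap (-0.19 ± 0.09; limma, adjusted p 0.882). Rpl32l kept within 2.46 and 2.73, while Rpl32 was 0.15 higher in telmisartan+LPS than in LPS cells, without overlap. Of 25 members with more than 1 feature, the brightest pair of features had opposite signs in 10 when telmisartan+LPS was set against LPS and in 9 when it was set against telmisartan. The same held for 7 members in LPS minus DMSO, 4 in telmisartan minus DMSO and 7 in the interaction. For Rpl23a and for Rps19 the brightest pair had identical values on all 12 arrays, so these members could never be counted. Rps12 and Rps26, each with a difference of 0 for telmisartan+LPS against LPS, could not be counted in that comparison.

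The rule covered 58 of 79 canonical ribosomal protein genes. Of the other 21, 12 lay only on features that also list other symbols, such as Rps2, Rpl13a and Rpl10. The 57 features of this shared kind had a median difference of 0.13 for telmisartan+LPS minus LPS, while telmisartan+LPS minus telmisartan gave 0.12, LPS minus DMSO -0.12, telmisartan minus DMSO -0.09 and the interaction 0.25, and 0 of these 57 were called in the test over 41345 features. Fau, which encodes a small-subunit protein as a fusion with a ubiquitin-like domain, has a feature of its own but another kind of name; its differences were 0.15, 0.19, -0.05, -0.10 and 0.24 in the same order. Rpl7l1 gave 0.10, -0.02, -0.19, -0.07 and 0.17, and Rpl22l1 gave 0.01, 0.08, 0.04, -0.03 and 0.04.

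Medians of members with and without the pyrimidine run in any of their start windows are given as a description, and their difference was not tested. In telmisartan+LPS minus LPS the median was 0.05 over the 26 with the run and 0.10 over the 24 without, and in telmisartan+LPS minus telmisartan it was 0.07 and 0.13. The medians were -0.04 and -0.12 for telmisartan minus DMSO, -0.03 and -0.04 for LPS minus DMSO, and 0.09 and 0.22 for the interaction. Of the 3 members with the lowest adjusted p in telmisartan+LPS minus telmisartan, Rps27 and Rps24 carry the run in the sequences printed above and Rplp0 does not.

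Lists of other genes of translation are set beside the members, without a test between lists. In LPS minus DMSO the 70 mitochondrial ribosomal protein genes had a median of -0.13, with 63 lower and 7 higher. Groups did not overlap for 35 that were lower, against 9.42% of all genes, and 0 were called, against 0.428% of all genes. Their medians were 0.08 for telmisartan+LPS minus LPS, 0.02 in the comparison with telmisartan, and 0.14 for the interaction, with 61 of 70 positive in the last. The 17 elongation factors and other TOP mRNA genes, whose mRNAs share the translational control of the members, had medians of -0.01, 0.01 and 0.03 in those 3 comparisons, with 7, 9 and 10 of 17 higher. In LPS minus DMSO the median of these 17 was -0.03, with 13 lower, and in telmisartan minus DMSO it was -0.05, with 15 lower. Npm1, a nucleolar chaperone of that list, gave 0.17 for telmisartan+LPS minus LPS and 0.18 against telmisartan, while Nap1l1, a histone chaperone, gave -0.13 and -0.17 (limma, adjusted p 0.594, 0.447, 0.593 and 0.323). The 23 initiation factors had medians of 0.03, -0.03 and 0.05 in the 3 comparisons first given for the TOP genes, with 14, 8 and 15 of 23 higher. Their median was -0.07 in LPS minus DMSO, with 19 lower, and -0.02 in telmisartan minus DMSO, with 16 lower. Eif4a1, the cap-complex helicase, gave 0.22 ± 0.06 against LPS and 0.26 ± 0.06 against telmisartan (limma, adjusted p 0.360 and 0.133). Eif3j1, of the eIF3 complex, gave -0.32 ± 0.15 and -0.22 ± 0.15 in the same comparisons and -0.47 ± 0.21 in the interaction (limma, adjusted p 0.511, 0.537 and 0.635). No gene of these lists passed the test in any of the 5 comparisons.

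Ribosome assembly genes and regulators of translation are given last. The 43 biogenesis and nucleolar genes had medians of -0.02 for telmisartan+LPS against LPS, -0.03 for telmisartan+LPS against telmisartan, and -0.07 for LPS against DMSO, with 35 of 43 lower in the last. Rrp9, a U3 snoRNP protein, gave -0.26 for LPS against DMSO, -0.25 for telmisartan against DMSO and 0.46 for the interaction. Among 17 regulators of TOP mRNA translation, the mTORC1 inhibitor Sesn2 was 0.46 ± 0.11 higher with telmisartan+LPS than with LPS, and Tia1, which binds TOP mRNAs under stress, gave -0.41 ± 0.08 for telmisartan+LPS minus telmisartan (limma, adjusted p 0.304 and 0.067). The 8 genes of nucleolar stress and p53 had a median of -0.10 for telmisartan+LPS minus LPS, with Mdm2 at -0.27 ± 0.08 (adjusted p 0.360), and the 9 genes of ribosome quality control also had -0.10. Called genes numbered 0 in each of these lists and comparisons. In bulk RNA scaled to a common distribution, a family that shifts in all cells and one that shifts in a fraction of them cannot be told apart, nor can a change in total RNA per cell be seen.

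**Figure D4:**
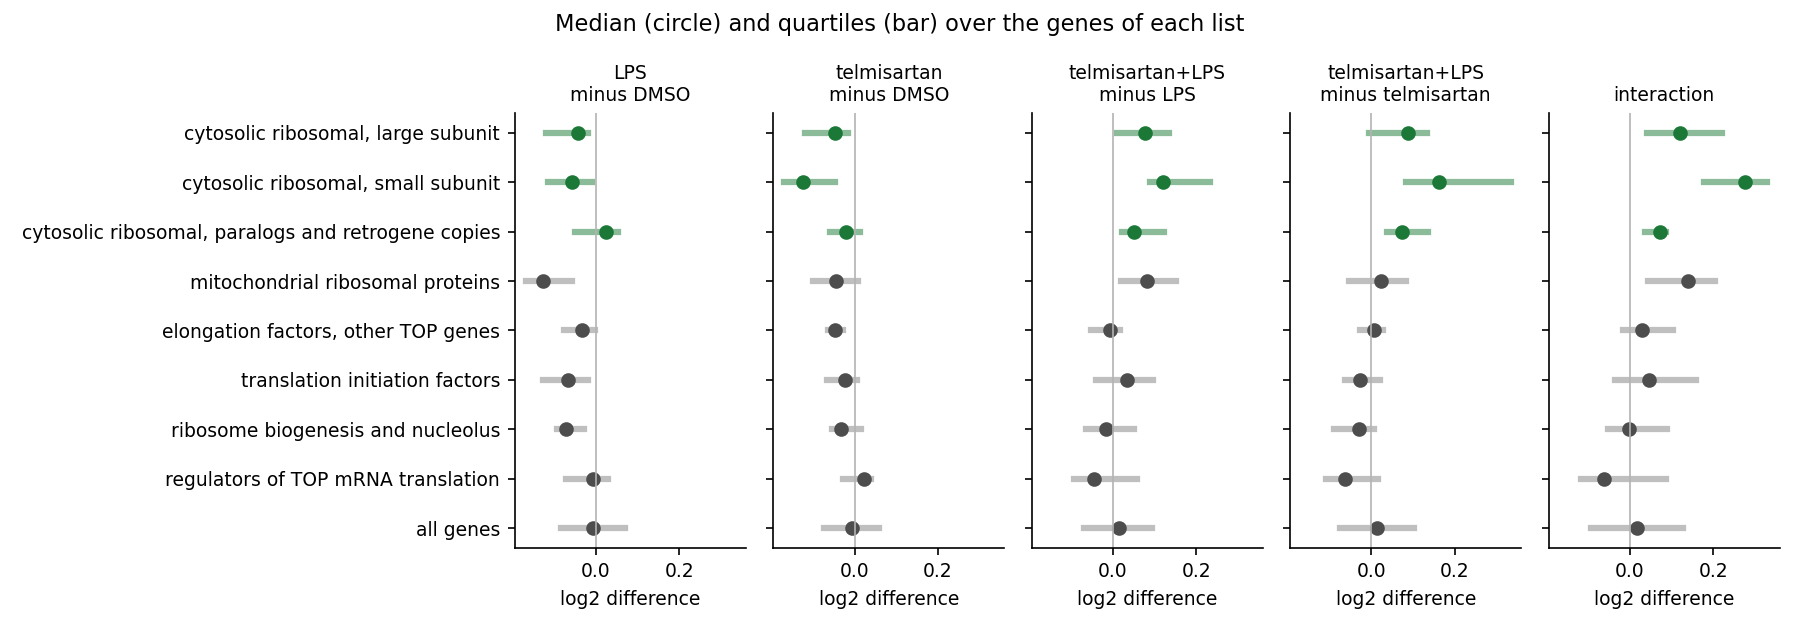
Median (circle) and quartiles (bar) of the log2 difference over the genes of each list in 5 comparisons, cytosolic ribosomal proteins in green and the other lists and all genes in grey. For the interaction the medians are 0.28 for the small-subunit list, 0.12 for the large-subunit list and 0.14 for mitochondrial ribosomal proteins, while elongation factors, initiation factors and biogenesis genes lie within 0.05 of 0.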

How the data were processed

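The deposited values are log2 signals that the authors made by RMA in Affymetrix Expression Console 1.4.1.46, per the file headers, with quantile normalization of the 12 arrays together and median-polish summaries. The headers name the second-version mouse gene array, whereas a labelling protocol names the earlier one. Of 41345 features, 23521 had 1 symbol, 1820 several and 16004 none in the platform annotation, and 23328 were updated through Entrez identifiers; the brightest feature stood for each of 22180 genes. A second deposited table differed by at most 0.005 and served as an alternative. The columns of other samples numbered 0. A model with 4 group means was fitted to the 12 arrays in limma 3.58.1 (R 4.3.3; 8 residual and 4.99 prior degrees of freedom) and tested on simulated data; p was adjusted by Benjamini-Hochberg, and a gene was called under 0.05. An exact permutation test of 3 against 3 arrays cannot go below 0.1. Every array is shown for most members with the 3 highest or lowest differences of a comparison, and for most of known special role or with a paralog. Others chosen after their values were seen are also shown. Rps25, Rpl39, Rpl3l, Rpl10l, Rpl32l, Rpl39l and Rps4l are given as ranges, and Rpl32 only as a difference. Members, lists and tests were chosen with earlier results of these data known. Labels and headers used here name no batch.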

Additional observations from a re-analysis of the deposited data

How the results depend on the processing

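Refits with other settings, each array left out in turn, and 2 choices added after seeing the data (telmisartan+LPS replicates 1 and 3 left out together, and other memberships) were compared. Among the values set against the reported ones, 910 were classed as the same and 17 counts or medians moved. A member passed anew 4 times and 13 differences reversed. For single members, the same class means that direction and call were kept. It allowed counts a limited change, such as 95 to 128 genes called for LPS minus DMSO with trended and robust variances. It also held counts of 0 that stayed 0, and medians that shifted by less than 0.051. Where no value below shows the cause, the cause was not tested.
The genes called for telmisartan+LPS minus telmisartan were 58, and were 164 with trended and robust variances, 149 with dim genes left out, 35 with only the groups compared, 25 without telmisartan+LPS replicates 1 and 3, and 31 to 66 with any 1 array left out (31 without telmisartan replicate 3). For telmisartan+LPS minus LPS, 0 genes were called, 14 with trended and robust variances and 0 to 5 with any 1 array left out (5 without LPS replicate 3, 1 without telmisartan replicate 1 or DMSO replicate 3). For the interaction 0 were called, 1 with trended and robust variances, 1 with dim genes left out and 0 to 3 with any 1 array left out (3 without LPS replicate 3).
Members called for telmisartan+LPS minus telmisartan were 2 with trended and robust variances, 1 with dim genes left out and 0 to 1 with any 1 array left out, against 0. The members' median there was 0.053 with arrays centred, and the median interaction lay between 0.12 and 0.243 with any 1 array left out.
Rps18 in LPS minus DMSO was -0.026 over all its features. With any 1 array left out, Rps25 in telmisartan minus DMSO ran from -0.045 to 0.175 and Rps15 in LPS minus DMSO from -0.02 to 0.22, and the interactions of Rpl11, Rpl27a and Rpl6 ran from -0.273 to 0.092, -0.187 to 0.058 and -0.31 to 0.015. Without telmisartan+LPS replicates 1 and 3, which leaves 1 array in that group, Rpl11 was 0.133 against LPS, Rpl27a was 0.04 against telmisartan, and the interactions were 0.237 for Rpl11, 0.203 for Rpl27a and 0.2 for Rpl6.
The interaction could not be fitted with only the groups compared, since it needs all 4. No paired analysis was possible because the labels give the treatments no shared replicate number; the running numbers go in 3 sets of the 4 treatments, but order alone was not used to pair arrays, and a fit blocked on these sets was not run.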

Other observations

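Rps2, a small-subunit protein at the mRNA entry, was measured only on features that list further symbols, and it was picked after its values were seen. The brighter Rps2 feature had 7.83, 9.12 and 9.64 on telmisartan+LPS arrays, 6.92, 6.86 and 8.74 on LPS arrays, 8.60, 8.76 and 8.92 on telmisartan arrays, and 8.72, 9.04 and 8.97 on DMSO arrays. Its differences were -1.40 for LPS minus DMSO and 1.36 for telmisartan+LPS minus LPS, each with an SE of 0.51 (limma, adjusted p 0.558 and 0.489 over 41345 features). LPS replicates 1 and 2 and telmisartan+LPS replicate 1 were low, while LPS replicate 3 lay at the DMSO level. The other Rps2 feature, with a mean of 7.04, gave -0.05 and 0.12.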
